A study of Mus musculus with 6 samples.

Results

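Fatty acid oxidation was followed through 35 genes that encode its mitochondrial and peroxisomal enzymes and their helpers, in whole kidneys of control and TfR1KO;KspCre mice. The genes were taken by symbol from the 24422 genes of the count tables, and all 35 were present and passed the filter on low counts that left 15171 genes. Of them, 17 encode proteins of mitochondria, 13 encode proteins of peroxisomes, and 5 encode proteins found in both compartments or on another membrane. The sets were 3 wild type control kidneys and 3 TfR1KO;KspCre kidneys, here called control and knockout 1 to 3, all from C57BL/6 mice at postnatal day 60 that received a diet with 220 ppm iron. In the knockouts TfR1, the receptor that takes up transferrin-bound iron, was deleted by a Cre under the Ksp-cadherin promoter, a driver of the distal nephron that also reaches the collecting duct. Each library was polyadenylated RNA of a whole kidney, so it held all nephron segments, vessels, stroma and immune cells. Each kidney counted as a separate biological replicate in the study's design.

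Fatty acids are bound to coenzyme A before they are burned. Long chains enter mitochondria as carnitine esters through the carnitine palmitoyltransferases Cpt1a and Cpt2, and each turn of beta-oxidation then runs through an acyl-CoA dehydrogenase, a hydratase, a 3-hydroxyacyl-CoA dehydrogenase and a thiolase, which releases acetyl-CoA. Electrons of the dehydrogenation step pass through the electron transfer flavoprotein to the respiratory chain. Peroxisomes run the same chemistry with an acyl-CoA oxidase, which makes hydrogen peroxide, and they take very long chains, branched chains and bile acid precursors. Cells of the proximal tubule are rich in both organelles and are known for using fatty acids as their main fuel.

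Promoter sequences of some members are shown as a description, and their part in the changes was not tested. RefSeq windows on GRCm38.p6, from 250 bases before to 50 bases after the start of the transcript, were at hand for 30 of the 35 genes, with 34 windows in all. The windows had a median GC content of 58.5% and 16.5 CpG, against 52.7% and 7 over all 32851 windows of the table. GGGCGG, the GC box, was in 22 of the 34 windows (64.7%) and in 35.66% of all windows, whereas TATAAA, the TATA box, was in 1 (2.9%) against 13.62%. CCAAT was in 15 (44.1%) against 37.41%. AGGTCA, the half-site of nuclear receptors such as the PPARs, was in 6 windows (17.6%, those of Acadm, Acadvl, Cpt1a, Echs1, Phyh and Scp2) against 16.26%, and its direct repeat AGGTCANAGGTCA was in 0 against 0.04%. Motifs were read on both strands, the direct repeat holds the half-site, and a match describes the letters of the window only.

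The windows of Acsm2, Acadm and Pecr belong to members with large differences between the groups, and that of Hadhb lies between a pair of members that start head to head. Capitals mark a TATA box, a half-site or a GC box on either strand.
Acsm2, chr7:119554090-119554389, plus strand: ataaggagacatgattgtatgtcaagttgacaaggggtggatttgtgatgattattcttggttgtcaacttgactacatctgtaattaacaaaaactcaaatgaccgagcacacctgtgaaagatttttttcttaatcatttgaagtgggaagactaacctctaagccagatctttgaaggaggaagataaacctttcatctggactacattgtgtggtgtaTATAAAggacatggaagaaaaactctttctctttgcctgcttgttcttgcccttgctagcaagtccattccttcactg
Acadm, chr3:153944594-153944893, minus strand: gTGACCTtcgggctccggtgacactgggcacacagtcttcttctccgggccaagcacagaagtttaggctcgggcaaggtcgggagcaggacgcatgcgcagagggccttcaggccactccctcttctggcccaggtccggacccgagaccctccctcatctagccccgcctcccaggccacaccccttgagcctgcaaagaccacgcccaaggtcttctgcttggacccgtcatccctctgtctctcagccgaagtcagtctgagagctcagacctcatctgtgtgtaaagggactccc
Pecr, chr1:72284272-72284571, minus strand: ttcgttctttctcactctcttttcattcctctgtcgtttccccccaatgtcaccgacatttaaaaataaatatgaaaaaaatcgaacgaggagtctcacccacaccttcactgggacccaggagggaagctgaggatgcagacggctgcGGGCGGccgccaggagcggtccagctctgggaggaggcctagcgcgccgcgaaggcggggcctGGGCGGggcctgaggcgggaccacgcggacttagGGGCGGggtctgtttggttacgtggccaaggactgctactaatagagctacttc
Hadhb, chr5:30155003-30155302, plus strand: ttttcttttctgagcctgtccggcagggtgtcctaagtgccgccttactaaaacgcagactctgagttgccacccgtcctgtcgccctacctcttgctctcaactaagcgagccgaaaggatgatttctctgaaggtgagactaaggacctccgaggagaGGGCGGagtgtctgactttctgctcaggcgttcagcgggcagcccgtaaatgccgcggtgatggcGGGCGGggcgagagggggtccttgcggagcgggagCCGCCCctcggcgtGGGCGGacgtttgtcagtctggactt

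Acsm2 had the TATA box of the set, 28 bases before its start, in a window of 38.3% GC with 1 CpG. Acsm2 also had a downstream window, at chr7:119561458-119561757, with neither a TATA box nor a GC box. The half-site of Acadm, read on the opposite strand, began 249 bases before the start, and Pecr had GC boxes that began 101, 38 and 4 bases before its start. Hadhb and Hadha start 273 bases apart on opposite strands, and their windows share 228 bases.

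The 6 libraries held 11501053 to 21001341 counts, the lowest in knockout 3. The deleted gene did not check the labels in whole kidney RNA: Tfrc (TfR1) had 138, 168 and 62.0 counts per 1000000 (CPM) in the controls and 214, 86.0 and 40.6 CPM in the knockouts. Along the first principal component, which held 69.4% of the variance, the controls lay at -72.6 to -53.2, the library labelled knockout 1 lay at 9.67, and knockouts 2 and 3 lay at 88.6 and 82.1. Control 2 had 52 counts of Xist, against 10458 to 23845 in the other libraries, and it had 518 to 1451 counts of each of the Y-linked genes Ddx3y, Eif2s3y, Kdm5d and Uty, of which no other library had more than 4. The labels give no sex. Those of the 35 genes whose fold between the groups moved by over 1.5 times without control 2 or without knockout 1 are therefore given with and without that library.

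All 35 genes had a lower mean in the knockouts than in the controls. In the quasi-likelihood test of edgeR, with p values adjusted by Benjamini and Hochberg over the 15171 genes, 11 of the 35 were lower in the knockouts at an adjusted p under 0.05 and 0 were higher, whereas 6.64% of all tested genes were called lower and 10.6% higher. The median log2 fold change was -1.06 over the 35 genes and 0.02 over all tested genes. Every knockout library lay below every control library in 32 of the 35 genes (91.4%), against 22.2% of all tested genes. The 3 genes whose groups overlapped were Acaa2, Hacl1 and Acsl1. A log2 fold change below -1 was found for 21 of the 35 genes and for 8.73% of all tested genes. The 24 genes that missed the threshold had adjusted p values up to 0.186, and 31 of the 35 had an unadjusted p under 0.05, against 17.6% of all tested genes in that direction.

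The calls depended on which libraries were in the fit. Without knockout 1, 34 of the 35 genes were called lower (16.4% of all tested genes), with Crot at an adjusted p of 0.0709 as the exception. When control 1, 2 or 3 or knockout 2 or 3 was left out, 0 of the 35 were called by the same edgeR test, although 20 to 28 of them then had an unadjusted p under 0.05 and every log2 fold change stayed negative. Of all tested genes, 0 to 73 were called in these fits, and 27.4% to 31% had an unadjusted p under 0.05, in either direction. Without control 2, 24 of the 35 were lower at an unadjusted p under 0.05, against 12.4% of all tested genes in that direction. In a comparison chosen after the data were seen, without both control 2 and knockout 1, 32 of the 35 were called lower (11.7% of all tested genes). The DESeq2 Wald test called 32 of the 35 lower and 15.0% of all tested genes, and limma-voom called 12 lower and 6.05% of all tested genes. With scaling by library size alone, edgeR called 6 of the 35 lower and 4.36% of all tested genes. At an unadjusted p under 0.05, 31 of the 35 were lower with a replicate block (17.1% of all tested genes) and 23 with the ratio of Xist to Y-linked counts as a covariate (12.3%), and in these fits 0 were called after adjustment. That ratio set control 2 apart from all other libraries, so the fit with it largely repeated the one without control 2.

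The knockouts differed among themselves. Knockout 1 was the highest of the 3 knockouts in 35 of the 35 genes, against 65.5% of all genes with a negative fold change, and knockout 3 was the lowest in 31, against 49.5%. As a share of the control mean, the median gene of the set stood at 70.4% in knockout 1, 39.9% in knockout 2 and 30.7% in knockout 3. The range in knockout 1 ran from 27.8% (Acsm2) to 87.9% (Acaa2), and in knockout 3 it ran from 6.46% (Acox2) to 68.5% (Acaa1a). Of all counts, the 35 genes took 1.15%, 1.57% and 1.22% in the controls and 0.883%, 0.530% and 0.414% in knockouts 1 to 3. Rn45s, the ribosomal RNA precursor, took 0.555% to 0.611% of the counts in the controls and 0.506%, 0.745% and 2.59% in knockouts 1 to 3, and the part of this in the falls was not tested.

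**Figure D1:**
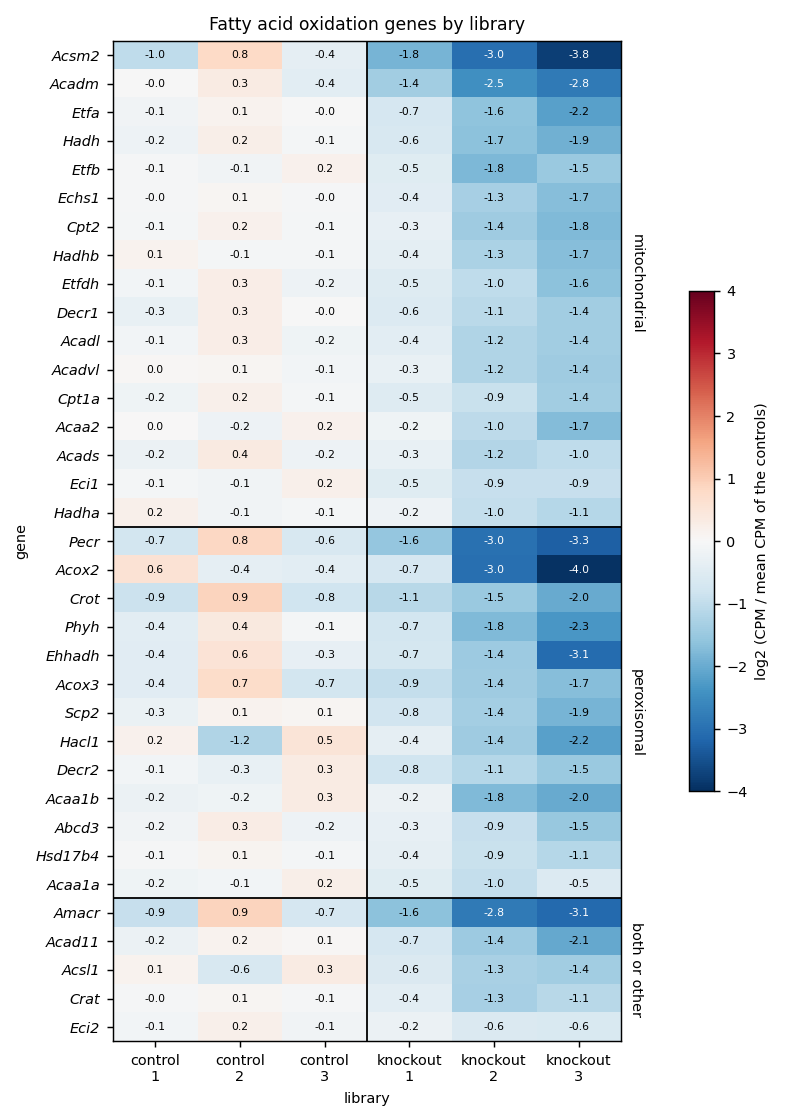
Each cell gives the log2 ratio of a gene's CPM in 1 library to its mean CPM in the controls, for the 35 genes (vertical, grouped by compartment) and the 6 libraries (horizontal). All cells of the knockouts are below 0, and knockout 1 is the palest of the knockout columns in every gene.

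In the mitochondrial group, 5 of 17 genes fell past the threshold, the median log2 fold change was -0.98, and the range was -2.66 to -0.70. At the entry of long chains, Cpt1a, which makes the acylcarnitines, had 412 to 530.1 CPM in the controls and 177 to 324 CPM in the knockouts (log2 fold change -0.89, SE 0.26, edgeR adjusted p = 0.0566). Cpt2, which turns them back into acyl-CoA inside, had 174 to 207 CPM and 54.5 to 148 CPM (log2 fold change -1.04, adjusted p = 0.0871 by edgeR). Neither passed the threshold, although the groups did not overlap in either gene.

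The acyl-CoA dehydrogenases, which share the first step by chain length, differed in size of change. Acadm, the medium-chain dehydrogenase (chr3:153585321-153607596 of mm9), had 1086, 1376 and 816 CPM in the controls and 421, 198 and 155 CPM in the knockouts. Every knockout library held less than any control. Acadm fell from 1093 ± 280.0 to 258 ± 143 CPM (SD, n = 3 each), 4.23-fold (log2 fold change -2.08, SE 0.43, edgeR adjusted p = 0.0324). The long-chain Acadl, the very long-chain Acadvl and the short-chain Acads had log2 fold changes of -0.94, -0.89 and -0.78, with edgeR adjusted p values of 0.0650, 0.0825 and 0.0921. The fold of Acadm was not tested against theirs.

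Genes of the later steps were lower without passing the threshold. The trifunctional protein, which joins the last steps for long chains, is made of Hadha (314 to 401 CPM in the controls, 159 to 303 CPM in the knockouts) and Hadhb (406 to 468 CPM and 131 to 325 CPM), with log2 fold changes of -0.70 and -1.02. The ratio of Hadha to Hadhb counts, taken within a library, was 0.857, 0.767 and 0.802 in the controls and 0.933, 0.997 and 1.21 in the knockouts, so it did not overlap between the groups. It was neither tested nor set against the ratios of gene pairs at large. Exons of Hadha also overlap Fam59b on the opposite strand. Echs1, the hydratase for short chains, Hadh, the 3-hydroxyacyl-CoA dehydrogenase for short and medium chains, and Acaa2, the mitochondrial thiolase, had log2 fold changes of -1.06, -1.29 and -0.84, with edgeR adjusted p values of 0.0609, 0.0519 and 0.148. In Acaa2 knockout 1 (351 CPM) lay above control 2 (343 CPM).

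The auxiliary enzymes for unsaturated fatty acids both fell. Eci1, an isomerase that moves double bonds (chr17:24563628-24576261 of mm9), had 93.9, 90.9 and 113 CPM in the controls and 71.4, 52.8 and 52.5 CPM in the knockouts. Its change was small but its spread was small too (log2 fold change -0.75, SE 0.17, edgeR adjusted p = 0.0365). Decr1, the 2,4-dienoyl-CoA reductase of mitochondria (chr4:15844387-15872654), had 185, 275 and 225 CPM in the controls and 155, 109 and 86.3 CPM in the knockouts. The groups did not overlap, and the log2 fold change was -0.97 (SE 0.26, edgeR adjusted p = 0.0476).

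Of the electron transfer flavoprotein and its dehydrogenase, 1 of 3 genes passed. Etfa, the alpha subunit (chr9:55302315-55360050 of mm9), had 377, 459 and 408 CPM in the controls and 259, 136 and 92.7 CPM in the knockouts. It fell 2.55-fold (log2 fold change -1.35, SE 0.37), with an edgeR adjusted p just inside the threshold at 0.04998. Etfb, the beta subunit, and Etfdh, which hands the electrons to ubiquinone, had log2 fold changes of -1.14 and -0.98 with adjusted p values of 0.0635 and 0.0580 by edgeR. The counts of Etfa and Etfb kept overlapping ratios in the controls (0.728 to 1.01) and the knockouts (0.520 to 0.946).

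Acsm2, which activates medium-chain acids inside mitochondria (chr7:126697983-126740115 of mm9), had the largest log2 fold change of the 35 genes when all 6 libraries were compared. It had 1420.1, 4906 and 2224 CPM in the controls and 793, 354 and 209 CPM in the knockouts. The groups did not overlap, but control 2 stood at 2.69 times the mean of the other controls. It fell from 2850.1 ± 1825 to 452 ± 304 CPM (SD, n = 3 each), 6.30-fold (log2 fold change -2.66, SE 0.67, edgeR adjusted p = 0.0418). Its log2 fold change was -2.03 without control 2 and -3.35 without knockout 1, and that of Acox2 was then slightly larger (-2.04 and -3.41). It was also larger without both libraries and with the ratio of Xist to Y-linked counts as a covariate.

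**Figure D2:**
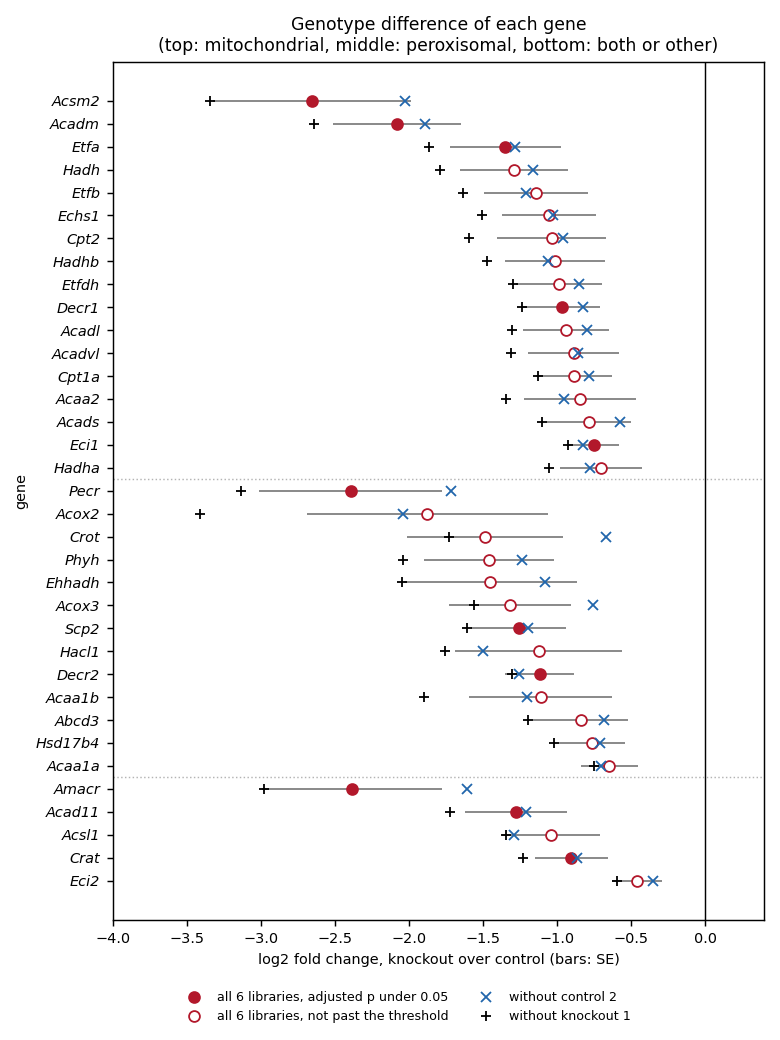
Log2 fold changes of the 35 genes (horizontal, knockout over control; vertical, gene by compartment), with bars for the SE of the fit on all 6 libraries; filled circles passed an adjusted p of 0.05. Crosses give the values without control 2 and plus signs those without knockout 1, all below 0.

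In the peroxisomal group, 3 of 13 genes fell past the threshold, and the median log2 fold change was -1.26 (range -2.39 to -0.65). Import through Abcd3, the half-transporter for acyl-CoA in the peroxisomal membrane, stood at 369 to 514 CPM in the controls and 148 to 334 CPM in the knockouts (log2 fold change -0.84, edgeR adjusted p = 0.102). Crot, which makes carnitine esters of shortened chains for export to mitochondria, had a log2 fold change of -1.49 and an adjusted p of 0.0865 by edgeR.

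The acyl-CoA oxidases carry out the first peroxisomal step. Acox2, which acts on bile acid precursors and branched chains, had 254, 132 and 127 CPM in the controls and 107, 21.2 and 11.03 CPM in the knockouts. Knockout 1 was close to controls 2 and 3, while knockouts 2 and 3 were far below every control, and with that spread the log2 fold change of -1.88 had an SE of 0.81 (edgeR adjusted p = 0.137). Without knockout 1 it was -3.41 (adjusted p = 0.00429 by edgeR). Acox3, which oxidises branched chains, had 149, 336 and 123 CPM in the controls and 105, 76.3 and 62.4 CPM in the knockouts (log2 fold change -1.32, edgeR adjusted p = 0.0651). Neither passed the threshold, although every knockout lay below every control in both. Per-library values of Acox2, Acox3, Crot and Hacl1 were chosen for display after they had been seen.

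The bifunctional enzymes of the middle steps, Ehhadh for straight chains and Hsd17b4 for branched chains as well, had log2 fold changes of -1.45 and -0.76, with edgeR adjusted p values of 0.116 and 0.0583. Ehhadh had 441 to 878 CPM in the controls and 70.7 to 365 CPM in the knockouts, whereas Hsd17b4 was tight in the controls (261 to 297 CPM) and stood at 124 to 212 CPM in the knockouts. Both genes kept their groups apart, and Ehhadh stood at -2.05 on the log2 scale when knockout 1 was left out (adjusted p = 0.0355 by edgeR).

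The thiolases close the cycle. Scp2, whose gene makes the thiolase for branched chains and sterol carrier protein 2 (chr4:107716444-107817603 of mm9), had 783, 1047 and 1008 CPM in the controls and 559.7, 366 and 259.7 CPM in the knockouts. It fell 2.39-fold with no overlap (log2 fold change -1.26, SE 0.32, edgeR adjusted p = 0.0430). The thiolase genes for straight chains, Acaa1a and Acaa1b, did not pass. Acaa1a (chr9:119250412-119259413) had 125, 133 and 169 CPM in the controls and 102, 72.8 and 97.4 CPM in the knockouts (log2 fold change -0.65, SE 0.19, adjusted p = 0.0590 by edgeR). Acaa1b (chr9:119057141-119066211) had 283, 295 and 416 CPM in the controls and 281, 96.9 and 81.6 CPM in the knockouts (log2 fold change -1.11, SE 0.49, adjusted p = 0.139 by edgeR). Knockout 1 stood just under control 1 in Acaa1b, while knockouts 2 and 3 were well below every control, and without knockout 1 the log2 fold change was -1.90 (adjusted p = 0.00344 by edgeR).

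Acaa1a and Acaa1b are near-identical copies, and their coding sequences of 1275 bases each were 96.5% identical, with 44 differing positions and a longest identical run of 327 bases. The stretch of coding positions 627 to 726, with its 3 differing bases in capitals, shows how close the copies are (mm9).
Acaa1a, chr9:119257699-119257798, plus strand: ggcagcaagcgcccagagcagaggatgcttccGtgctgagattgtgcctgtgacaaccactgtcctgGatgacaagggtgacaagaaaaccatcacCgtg
Acaa1b, chr9:119058809-119058908, minus strand: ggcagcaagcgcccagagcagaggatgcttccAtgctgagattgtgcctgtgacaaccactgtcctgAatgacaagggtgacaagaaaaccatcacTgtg

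Of the 100-base words of each transcript, 78.3% of those of Acaa1a and 69.5% of those of Acaa1b occurred on neither strand of another gene's protein-coding transcripts. Other sequences were not searched. Words of Acaa1b were shared with Dlec1 as well as with Acaa1a. Reads were single-end, 100 bases long and kept only if they mapped uniquely, so the levels of this pair are uncertain. The ratio of Acaa1b to Acaa1a counts was 2.26, 2.22 and 2.47 in the controls and 2.75, 1.33 and 0.837 in knockouts 1 to 3, so knockouts 2 and 3 fell below the controls and knockout 1 did not. Acaa1a also overlaps exons of Myd88 on the other strand, and Acaa1b those of Dlec1. The strand setting of the counting is not given in the sources used here. The other members with exons that overlap a gene on the opposite strand were Acadvl (Dvl2), Hadha (Fam59b), Acox3 (4931431C16Rik), Abcd3 (Gm17676), Eci2 (Gm16984), Crat (Dolpp1 and Gm16323) and Acad11 (Ccrl1).

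The remaining peroxisomal enzymes handle chains that the core cycle cannot. Pecr, the trans-2-enoyl-CoA reductase (chr1:72305741-72330888 of mm9), had 169, 498 and 182 CPM in the controls and 96.5, 35.6 and 29.1 CPM in the knockouts. It fell 5.26-fold with no overlap (log2 fold change -2.39, SE 0.62, edgeR adjusted p = 0.0445), and without knockout 1 the log2 fold change was -3.14. Decr2, the peroxisomal 2,4-dienoyl-CoA reductase (chr17:26218156-26227274), had 85.3, 74.3 and 114 CPM in the controls and 52.0, 41.7 and 32.6 CPM in the knockouts. Its fall of 2.17-fold was smaller but tighter (log2 fold change -1.12, SE 0.23, edgeR adjusted p = 0.0324). Phyh and Hacl1, which hydroxylate and cleave phytanic acid in alpha-oxidation, had log2 fold changes of -1.46 and -1.12 with edgeR adjusted p values of 0.0600 and 0.186. Hacl1 had 121, 46.3 and 155 CPM in the controls and 83.6, 39.8 and 23.8 CPM in the knockouts. Knockout 1 lay above control 2, and without knockout 1 the log2 fold change was -1.75 (adjusted p = 0.0463 by edgeR).

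Among the 5 genes of both compartments or another membrane, 3 fell past the threshold. Amacr, the racemase that turns branched-chain acyl-CoA into the form that oxidases accept (chr15:10911511-10926379 of mm9), had 98.0, 342 and 116 CPM in the controls and 59.0, 25.8 and 21.4 CPM in the knockouts. It fell 5.22-fold with no overlap (log2 fold change -2.38, SE 0.61, edgeR adjusted p = 0.0430), and without knockout 1 the log2 fold change was -2.98. Acad11, an acyl-CoA dehydrogenase of hydroxylated fatty acids (chr9:103942992-104029976), had 203, 268 and 251 CPM in the controls and 151, 88.6 and 58.1 CPM in the knockouts. Its log2 fold change was -1.28 (SE 0.35, edgeR adjusted p = 0.0478), and 95.9% of the 100-base words of its transcript occurred in no protein-coding transcript of another gene.

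Crat, which makes short-chain acylcarnitines (chr2:30255991-30271333 of mm9), had 195, 214 and 193 CPM in the controls and 149, 80.0 and 92.7 CPM in the knockouts, with no overlap and a difference of -0.90 on the log2 scale (SE 0.25, adjusted p = 0.0493 by edgeR). Eci2, an isomerase like Eci1, had the smallest change of the 35 genes (110.0 to 140.2 CPM against 80.2 to 103 CPM, log2 fold change -0.46, edgeR adjusted p = 0.0945). Acsl1, the long-chain acyl-CoA synthetase, had a log2 fold change of -1.04 (edgeR adjusted p = 0.0677), and knockout 1 (278 CPM) lay above control 2 (268 CPM).

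Control 2 stood apart from the other controls in a part of the set. It was above both in 24 of the 35 genes, against 33.2% of all tested genes and 45.1% of those with a negative fold change. It was below both in 7, against 34.1% and 25.6%. It was over 2 times the mean of controls 1 and 3 in 5 of the 35 genes, against 1.92% of all tested genes, with 3.31 times in Crot, 3.20 in Amacr, 2.84 in Pecr, 2.69 in Acsm2 and 2.47 in Acox3. Crot had 198, 674 and 209 CPM in the controls and 168, 128 and 89.7 CPM in the knockouts. In the other direction, Hacl1 in control 2 was 0.337 times the mean of the other controls. It was the 1 member under 0.5 times, against 4.53% of all tested genes. Without control 2 the log2 fold changes became -0.67 for Crot, -1.61 for Amacr, -1.72 for Pecr and -0.76 for Acox3, and -1.50 for Hacl1, while Acadm stayed at -1.89. The part of the Y-linked signal of this library in these values was not tested.

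**Figure D3:**
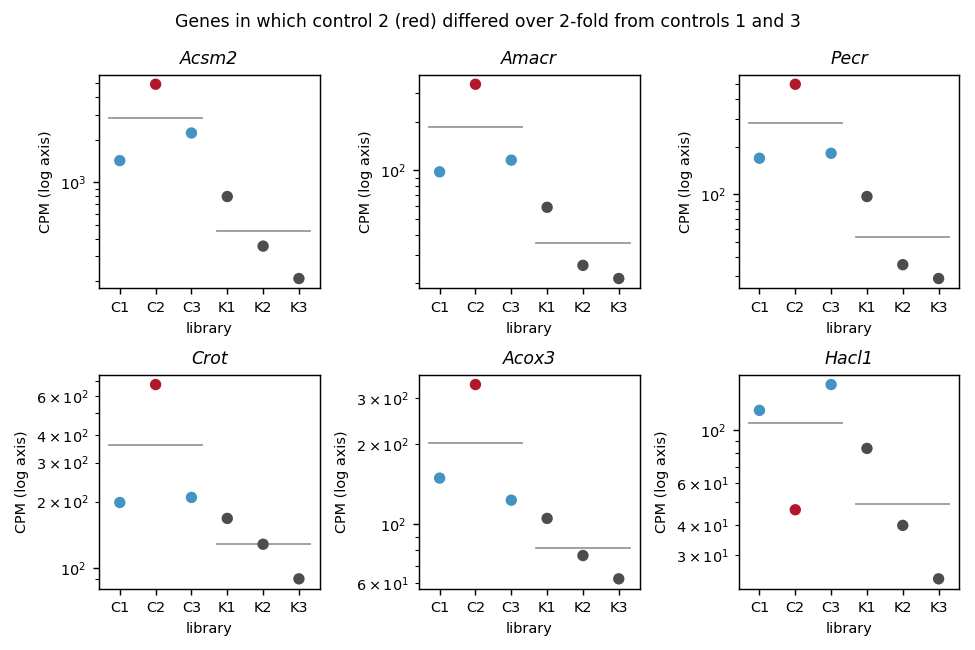
CPM (vertical, log axis) in each library (horizontal; C, control; K, knockout) of the 6 genes in which control 2, in red, differed by over 2-fold from controls 1 and 3; lines are group means of 3. Control 2 is the highest library in Acsm2, Amacr, Pecr, Crot and Acox3, and the lowest control in Hacl1.

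Per kilobase of transcript, which allows levels to be compared between genes, Acsm2 led the control kidneys with a mean of 1076 CPM per kb, followed by Etfb with 573 and Acadm with 534. In the knockouts Etfb led with 259.7 CPM per kb, ahead of Acsm2 with 171, and Acadm moved from rank 3 to rank 7 with 126. Pecr moved from rank 9 (239 CPM per kb) to rank 24 (45.3), and Amacr from rank 29 (71.9) to rank 35 (13.7). These moves rested in part on control 2: over controls 1 and 3 alone, Pecr was at rank 15 (148 CPM per kb) and Amacr already at rank 34 (41.5), while Acsm2, Etfb and Acadm kept ranks 1 to 3. The order of neighbours was not tested, and the levels of Acsm2 spread from 536 to 1852 CPM per kb among the controls, so it overlapped Etfb (524 to 645).

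The pathway around these genes was described with further lists. Of 20 genes of fatty acid uptake and activation, 19 were tested, 5 fell and 1 rose, with a median log2 fold change of -0.56. The falls were those of the medium-chain synthetases Acsm1 (251 ± 60.8 to 46.5 ± 27.3 CPM, SD, n = 3 each, log2 fold change -2.43) and Acsm5 (-2.36), the fatty acid binding protein Fabp3 (-2.09), the carnitine transporter Slc22a5 (-1.52) and the malonyl-CoA decarboxylase Mlycd (-1.06), the last 2 named after their values were seen. When knockout 1 was left out, Acsm1, Acsm5 and Fabp3 stood at -3.04, -3.10 and -2.81 on the log2 scale. The long-chain synthetase Acsl5 rose from 113 ± 17.1 to 183 ± 10.4 CPM (log2 fold change 0.70, SE 0.16, edgeR adjusted p = 0.0357), and its groups did not overlap.

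Of 28 other oxidation enzymes, 27 were tested, 9 fell and 1 rose (median -1.06). The largest falls that passed were those of Nudt19, a coenzyme A diphosphatase of peroxisomes (log2 fold change -2.24), and the acyl-CoA thioesterases Acot12 (-2.08) and Acot4 (-1.64). Control 2 stood at 3.09 times the mean of the other controls in Nudt19, and without control 2 the log2 fold changes were -1.49 for Nudt19, -1.65 for Acot12 and -1.65 for Acot4. When knockout 1 was left out instead, Acot4 stood at -2.34 on the log2 scale. Cpt1c, a form of Cpt1 best known from neurons, rose from 3.49 ± 0.491 to 11.8 ± 3.08 CPM (SD, n = 3 each, log2 fold change 1.75, edgeR adjusted p = 0.0277). Its level stayed low, and per-library values were 3.38, 3.06 and 4.02 CPM in the controls and 8.34, 14.3 and 12.6 CPM in the knockouts.

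Of 6 ketone body enzymes, 1 fell and 0 rose (median -1.58). Of 17 genes of peroxisome assembly and the peroxisomal matrix, 5 fell and 0 rose (median -0.64). They included Cat, the catalase that removes the hydrogen peroxide of the oxidases (857 ± 145 to 321 ± 146 CPM, SD, n = 3 each, log2 fold change -1.42), and Pex11a, which promotes division of peroxisomes (-1.21).

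**Figure D4:**
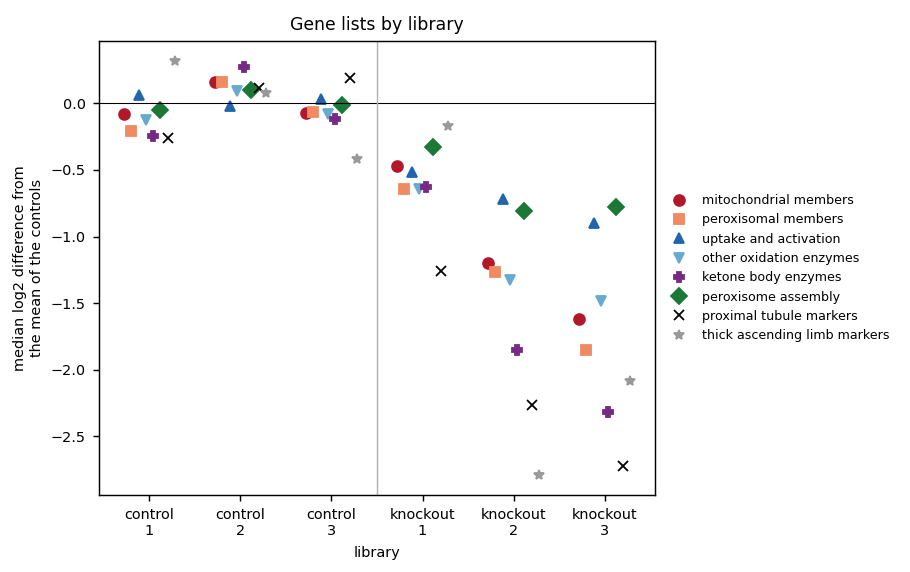
Median log2 difference of each gene list from the mean of the controls (vertical) in each of the 6 libraries (horizontal). In every knockout the proximal tubule markers lie below both groups of fatty acid oxidation genes, and every list lies nearer to the controls in knockout 1 than in knockouts 2 and 3.

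Markers of the proximal tubule, immune cells and fibroblasts differed with the genotype as well, and in bulk RNA fewer cells of a type and less RNA per cell cannot be told apart. Of 16 proximal tubule markers, 12 fell and 0 rose, with a median log2 fold change of -2.03. Their summed level was 15126 to 20852 CPM in the controls and 2781 to 8401 CPM in the knockouts. They included Lrp2, the endocytic receptor megalin (2705 ± 318 to 504 ± 347 CPM, SD, n = 3 each, log2 fold change -2.42, edgeR adjusted p = 0.0326), and Slc34a1, the sodium phosphate cotransporter (log2 fold change -2.12, edgeR adjusted p = 0.0432). Without knockout 1 these log2 fold changes were -3.15 and -2.86, and 15 of the 16 were called lower.

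Of 8 markers of the thick ascending limb, where the Cre is active, 0 were called by edgeR or limma-voom and 2 by the DESeq2 Wald test, and 2 had an unadjusted p under 0.05 in edgeR (median -1.40, summed level 5742 to 12300.0 CPM in the controls and 978 to 7284 CPM in the knockouts). Umod, the uromodulin of this segment, had 4599, 5328 and 1999 CPM in the controls and 3444, 423 and 259 CPM in the knockouts. These values rested on knockout 1: when it was left out, edgeR called 7 of the 8 lower, with a median of -2.52, and Umod moved from -1.53 to -3.55 on the log2 scale. The markers of the distal convoluted tubule had 1 of 5 lower (2389 to 3578 CPM summed in the controls, 446 to 2626 CPM in the knockouts), and those of the collecting duct had 0 of 8 called by edgeR or limma-voom and 1 by DESeq2, with 1 at an unadjusted p under 0.05 in edgeR (1079 to 1439 and 662 to 1661 CPM summed). With knockout 1 left out, edgeR called 1 of 5 and 2 of 8 of these lists lower, with medians of -1.38 and -0.91 in place of -0.78 and -0.23.

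Most markers of immune cells and fibroblasts rose. Of 9 immune cell markers 7 rose (summed level 324 to 366 CPM in the controls, 1257 to 3065 CPM in the knockouts), and of 6 fibroblast markers 4 rose (274 to 551 and 939 to 3836 CPM). Fat cells, which also oxidise fatty acids, were traced by 6 markers, of which edgeR called 2 lower, Ucp1 and Cidea, while DESeq2 called 2 and limma-voom called 0. Ucp1 had 53.0, 9.05 and 9.54 CPM in the controls and 2.60, 1.46 and 0.613 CPM in the knockouts, so control 1 stood apart. Without control 1 the log2 fold changes went from -3.90 to -2.57 for Ucp1 and from -2.05 to -1.26 for Cidea. In that fit edgeR called 0 of the 6, but it also called 0 of all 15518 tested genes. The summed level of the list was 52.6 to 186 CPM in the controls and 21.2 to 146 CPM in the knockouts. Cpt1b, the form of Cpt1 in muscle and brown fat, was at 0.0766 to 0.547 CPM in all libraries. The part of cell composition in the falls of the fatty acid oxidation genes was not tested.

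Set against the proximal tubule markers within the same library, the fatty acid oxidation genes stood higher in the knockouts. The summed counts of the 35 genes over those of the 16 markers were 0.798, 0.916 and 0.636 in the controls and 1.01, 1.34 and 1.31 in the knockouts (0.783 ± 0.140 and 1.22 ± 0.182, SD, n = 3 each), so the groups did not overlap. Without Acsm2, the member with the most counts in every control, the ratios were 0.635 ± 0.0931 and 1.13 ± 0.185. Among the 16 markers Slc34a1, Lrp2 and Miox had the most counts in every control, so they weigh most in the sum. The ratio without them was not taken. The summed counts of mitochondrial over peroxisomal genes were 2.02, 2.08 and 1.94 in the controls and 1.78, 1.64 and 1.85 in the knockouts. That difference rested on Acsm2, since without it the ratios were 1.63, 1.20 and 1.40 in the controls and 1.50, 1.42 and 1.67 in the knockouts, which overlapped. These ratios are descriptions and were not tested.

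**Figure D5:**
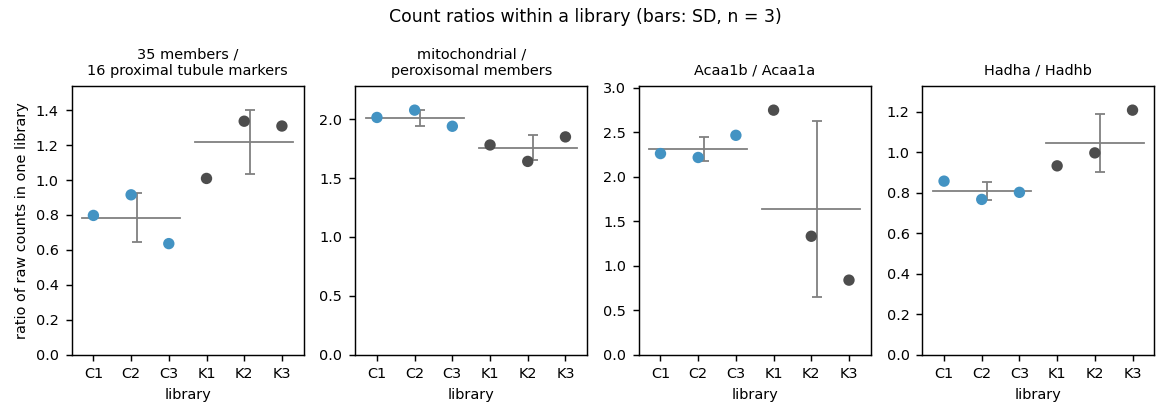
Ratios of raw counts within a library (vertical) for the 6 libraries (horizontal; C, control; K, knockout), with group means and SD of 3. The ratio of the 35 genes to the proximal tubule markers and that of Hadha to Hadhb are higher in every knockout than in any control, and that of Acaa1b to Acaa1a is below the controls in knockouts 2 and 3 only.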

How the data were processed

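Polyadenylated RNA of 6 whole kidneys was sequenced by the authors as single-end reads of 100 bases with TruSeq kits. Per the methods and the submitters' processing notes, CASAVA 1.8.2, Trimmomatic, alignment to mm9 with TopHat2 2.0.11 and HTSeq on uniquely mapped reads were used. The annotation and strand setting are not given in the sources used here. The tables as deposited hold raw counts of whole reads for each gene, and the authors pooled no replicates.

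Genes were filtered with filterByExpr of edgeR 4.0.16 (R 4.3.3; minimum count 10, minimum total 15), scaled by TMM and compared by the quasi-likelihood test on all 6 libraries, with Benjamini-Hochberg adjustment over 15171 genes and a threshold of 0.05. CPM are counts per 1000000 of the TMM-scaled library, and SE is the log2 fold change over the root of F. DESeq2 1.42.0, the tool of the study, and limma-voom 3.58.1 were alternatives. The tests were tried on simulated data. Depth of 11501053 to 21001341 counts per library left at least 144 counts of each of the 35 genes in every library, and replicates differed by more than sampling noise (chi-square per degree of freedom 52.9 to 125). Coordinates came from GENCODE M1 on mm9 (20791 of 24422 names matched, all 35 included). The genes and lists were chosen with earlier results of these data known. All 35 genes were named, with values per library for those called and for Acaa1a and Acaa1b, and from the other lists up to 3 falls and 3 rises, with Lrp2, Slc34a1 and Umod whatever their values. Some genes that this rule names are not reported here.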

Additional observations from a re-analysis of the deposited data

How the results depend on the processing

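The log2 fold changes of all 35 genes stayed negative under all 17 alternatives (595 values, -3.56 to -0.19), but the calls did not hold under all of them. In 32 of the 35 genes every knockout lay below every control, so leaving out libraries could hardly turn their sign. All fits drew on the same 6 libraries, so these values are not separate evidence of direction. With 3 libraries a group, the count of called genes ranged from 0 to 34 when 1 library was left out: 0 without any one of the controls or knockouts 2 and 3, and 34 without knockout 1. The ranges over these fits were 0 to 17 for the mitochondrial genes, 0 to 12 for the peroxisomal genes, 0 to 5 for those of both compartments, 0 to 9 for uptake and activation, 0 to 22 for the other oxidation enzymes, 0 to 5 for ketone body enzymes and 0 to 15 for peroxisome assembly, and the median log2 fold changes ranged from -1.35 to -0.77 (mitochondrial) and -1.73 to -1.03 (peroxisomal). Over all tested genes, 0 were called without control 1, 2 or 3, 73 without knockout 2, 2 without knockout 3 and 5332 without knockout 1.

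Scaling by library size alone, which moved the median of all genes from 0.02 to 0.29, left 6 of the 35 genes called lower (2 mitochondrial, 1 of both compartments), against 4.36% of all tested genes, and 3 of peroxisome assembly. The DESeq2 Wald test called 32 (16 mitochondrial, 11 peroxisomal, 5 of both), 10 of uptake and activation, 20 other oxidation enzymes, 5 ketone body enzymes and 11 of peroxisome assembly. Other scalings, filters and tools called 9 to 12 of the 35, where 4.80% to 7.55% of all tested genes were called lower. Same-numbered libraries did not vary together (correlations of -0.13, 0.01 and 0.21), so the numbers were not taken as pairs. With a replicate block, 0 genes of any list were called, although 31 of the 35 had an unadjusted p under 0.05 (17.1% of all tested genes were lower at that p) and the median log2 fold changes were -1.04 (mitochondrial) and -1.28 (peroxisomal). With the ratio of Xist to Y-linked counts as a covariate, 0 genes of any list were called and 23 of the 35 had an unadjusted p under 0.05 (12.3% of all tested genes were lower at that p). This ratio mainly marks control 2, so the fit largely repeated the one without that library. Without both control 2 and knockout 1, chosen after the data were seen, 32 of the 35 (17 mitochondrial, 11 peroxisomal), 20 other oxidation enzymes, 5 ketone body enzymes and 8 of peroxisome assembly were called, with a mitochondrial median of -1.44. The cause of these shifts was not tested. The lowest count of any of the 35 genes in a library was 144, of Acox2 in knockout 3.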

Other observations

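Acsm3, a medium-chain acyl-CoA synthetase of the same family as Acsm2, stood far above every other library in control 2. It had 6.82, 679 and 2.22 CPM in controls 1 to 3 and 18.1, 8.18 and 6.59 CPM in the knockouts, so control 2 held 150.3 times the mean of the other controls, and every knockout held more than control 3. Its log2 fold change of -4.38 had an SE of 1.96 (edgeR adjusted p = 0.148), and without control 2 the mean of the controls was 4.52 CPM, below that of the knockouts (10.96 CPM). For Acsm1 of the same family, control 2 stood at 0.652 times the mean of controls 1 and 3.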
